A study of Mus musculus with 18 samples.

Results

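The genes described here are 9 iron genes of the mouse: Fth1 and Ftl1, Ncoa4, Tfrc, Slc11a2, Slc11a1, Slc40a1, Ireb2 and Blvrb. They were taken by symbol from a table of 23511 genes, and all 9 were found once and passed the filter on low counts, with 16609 genes passing in all. Slc40a1 passed through the tumor groups alone, since its counts without a tumor were between 1 and 13.

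RNA was sequenced in bulk from macrophages sorted out of the mouse peritoneal cavity as Tim-4high or Tim-4low. Tim-4, encoded by Timd4, is a phosphatidylserine receptor of cavity-resident macrophages. There were 6 groups of 3 libraries. Tim-4high and Tim-4low cells came from mice without a tumor, from mice with a tumor and an isotype control antibody, and from mice with a tumor and anti-Tim-4, an antibody that binds Tim-4. The MC38-LG tumor, from the mouse colon carcinoma line MC38, was placed in the same cavity. The mice were treated with anti-Tim-4 on day 7 of the tumor, and their cells were taken on day 10. Mice without a tumor were harvested on the same day. The labels give no strain, age, sex or day for the isotype dose, and no antibody for the mice without a tumor, so tumor and antibody dosing cannot be told apart in the comparison of isotype tumor with no tumor. The 3 libraries of a group are called triplicates, and nothing says they came from separate mice, so a p-value here covers only how far these libraries spread, which may be technical.

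Macrophages take up iron bound to transferrin through the transferrin receptor (Tfrc) and iron from engulfed cells through the endosome. Iron that is not used at once is stored in ferritin, a hollow shell of heavy chains (Fth1), which oxidise iron, and light chains (Ftl1), which help to lay down the iron core. Ncoa4 is the receptor that carries ferritin to the lysosome for release of its iron. Slc11a1 (NRAMP1) and Slc11a2 (DMT1) move divalent metal out of phagosomes and endosomes, and Slc40a1 (ferroportin) exports iron from the cell. Ireb2 encodes iron regulatory protein IRP2, which binds hairpins called iron-responsive elements when iron is scarce. Such a hairpin before the coding region blocks translation, and hairpins after it protect the transcript from decay. Blvrb is biliverdin reductase B, an enzyme that reduces flavins and a product of heme breakdown.

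The iron-responsive elements are shown because they are the sequence that the genes of storage, uptake and export share and that the choice of genes did not use. Transcripts of the GENCODE M21 annotation (mm10) were searched on the transcript strand for CNNNNNCAGTGN followed by 5 bases that pair with the 5 bases before CAGTGN, with G-T pairs allowed. The loop is in capitals, and each run is 5′ to 3′.
Fth1, 5′ untranslated region, chr19:9982732-9982760, plus strand: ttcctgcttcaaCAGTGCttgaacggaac
Ftl1, 5′ untranslated region, chr7:45459779-45459807, minus strand: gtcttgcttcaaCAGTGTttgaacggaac
Slc40a1, 5′ untranslated region, chr1:45925465-45925493, minus strand: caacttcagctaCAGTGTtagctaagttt
Tfrc, 3′ untranslated region, site 1, chr16:32631219-32631247, plus strand: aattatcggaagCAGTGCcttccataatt
Tfrc, site 2, chr16:32631598-32631626, plus strand: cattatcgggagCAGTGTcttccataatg
Tfrc, site 3, chr16:32631663-32631691, plus strand: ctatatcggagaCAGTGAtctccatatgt
Tfrc, site 4, chr16:32631710-32631738, plus strand: aattatcgggaaCAGTGTttcccataatt
The elements of the ferritin chains differed at 3 of 29 bases. The Slc40a1 element differed from each of them at 16 of 29 bases. This pattern was found in 4 of the 9 genes and in 294 of 21866 coding genes scanned, or 1.34%. The pattern describes an element already known in such genes, so the count among the 9 is no test. When 1 unpaired base was allowed in the strand after the loop, 599 coding genes matched (2.74%), and Slc11a2 matched in the 3′ untranslated region of 1 of its transcripts, Slc11a2-205.
Slc11a2, 3′ untranslated region, chr15:100395153-100395180, minus strand: gccatcagagcCAGTGTgtttctatggt
A match is a run of letters that could fold, not a measured site, and binding was not measured.

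Levels are in CPM, estimated counts scaled to a common library size with TMM factors, and library totals lay between 24530070 and 34110392 estimated counts. Timd4, the gene behind the sort, was at 298 ± 19.8 CPM (SD, n = 3) in Tim-4high and 33.6 ± 36.2 CPM in Tim-4low cells with isotype. All 8 macrophage markers were found in every library, with a summed level of 17100 to 44900 CPM. Several libraries stood apart by markers of other cells. In the isotype libraries 3 of both populations, 11 T and NK cell markers summed to 95.8 and 109 CPM, against 12.1 to 21.3 CPM in the other isotype libraries, and neutrophil markers to 367 and 377 CPM. In the no-tumor libraries 1, B cell markers summed to 493 CPM in Tim-4high and 1670 CPM in Tim-4low cells, against 131 to 230 CPM in the other no-tumor libraries. Results were recomputed without these libraries, and the value without them is given where a call or the size changed.

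Per kilobase of exon, the 9 genes spanned a wide range of levels. Ftl1 was highest, at 1370 to 3940 CPM per kilobase over the 18 libraries, followed by Fth1 at 369 to 1170. Slc11a1 was at 80.0 to 134 and Blvrb at 22.8 to 46.3 CPM per kilobase, and these 4 ranges did not overlap. Ncoa4 at 7.30 to 10.5 and Ireb2 at 6.38 to 7.45 overlapped, as did Slc11a2 at 1.98 to 2.91 and Tfrc at 1.15 to 6.59. Slc40a1 was lowest, between 0.00439 and 0.490 CPM per kilobase. Ftl1 has a near-identical copy, Ftl1-ps1, which is annotated as coding on chromosome 13. It took between 37.4% and 40.9% of the counts of both in every library, so the split of reads between them is uncertain.

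**Figure D1:**
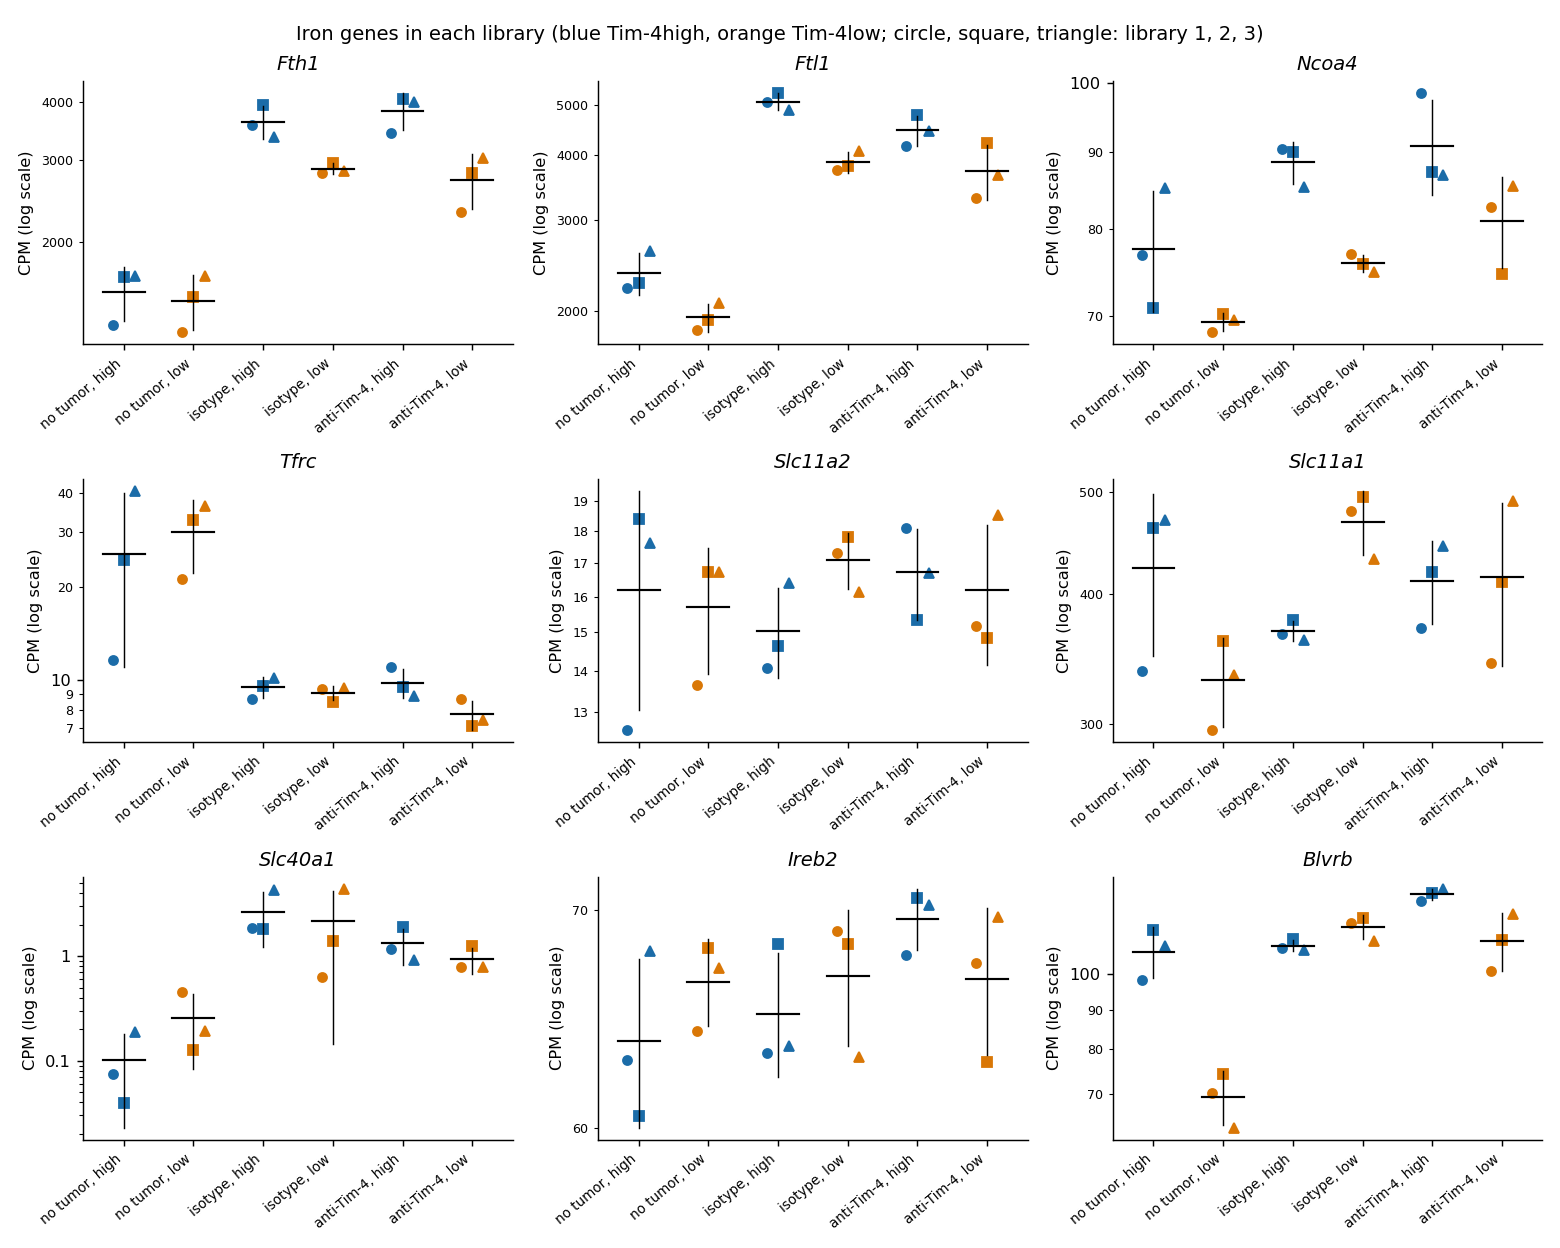
Level of each of the 9 iron genes in CPM (log axis, one scale per panel) in the 18 libraries, by group. Points are single libraries, black bars the mean ± SD of 3. Fth1 and Ftl1 are higher and Tfrc lower in all 12 tumor libraries than in the 6 without a tumor, while Ireb2 stays between 60.5 and 70.6 CPM.

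The first comparison asked how the iron genes differed between macrophages of tumor-bearing mice given isotype and those of mice without a tumor. In both populations the ferritin chains and Slc40a1 rose and Tfrc fell. The rise of Slc40a1, which the counts of called members include, was built into its passing the filter. In Tim-4high cells 4 of the 9 genes rose and 1 fell, where 27.3% of all genes tested rose and 24.1% fell (51.5% called in all). In Tim-4low cells 5 rose and 1 fell, where 25.2% of all genes tested rose and 24.6% fell (49.8% called in all). So many genes were called that the number of members called is near the background, and what follows describes the size and direction of single genes. Groups without overlap were common too. In Tim-4high cells 29.4% of all genes tested were higher and 28.1% lower without overlap. In Tim-4low cells the shares were 29.1% and 28.9%. The median log2 fold change of the 9 was 0.03 in Tim-4high and 0.50 in Tim-4low cells, against -0.01 and -0.02 over all genes. Adjusted p-values are from edgeR's quasi-likelihood test with Benjamini-Hochberg adjustment over 16609 genes, and a gene was called under 0.05. In bulk RNA, fewer cells of a type and less RNA per cell cannot be told apart.

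Fth1 (ENSMUSG00000024661, chromosome 19, 9980598 to 9985098, mm10), the heavy chain, was at 1321, 1675 and 1686 CPM in the Tim-4high libraries 1 to 3 without a tumor. With a tumor and isotype it was at 3568, 3926 and 3352 CPM. In Tim-4low cells it was at 1279, 1519 and 1686 CPM without and 2813, 2955 and 2841 CPM with a tumor. Every isotype library lay above every no-tumor one. The rise was 2.32-fold in Tim-4high (log2 1.21 ± 0.13 SE, adjusted p = 2.04e-06) and 1.92-fold in Tim-4low cells (log2 0.94 ± 0.13, adjusted p = 2.51e-05).

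Ftl1 (ENSMUSG00000050708, chromosome 7, 45457944 to 45459884), the light chain, was at 2209, 2265 and 2614 CPM in Tim-4high and 1831, 1917 and 2072 CPM in Tim-4low cells without a tumor. With isotype its values were 5080, 5285 and 4893 CPM in Tim-4high and 3755, 3807 and 4083 CPM in Tim-4low cells. Here too the tumor and no-tumor libraries did not overlap. Ftl1 rose 2.15-fold in Tim-4high (log2 1.11 ± 0.10, adjusted p = 3.99e-07) and 2.00-fold in Tim-4low cells (log2 1.00 ± 0.10, adjusted p = 1.19e-06). With the counts of its copies added, the rises were 1.14 and 1.03 on the log2 scale. The chains with Ftl1-ps1 made up 0.424% to 0.590% of a library without a tumor, 0.901% to 1.26% with isotype and 0.775% to 1.19% with anti-Tim-4. The Fth1 to Ftl1 ratio per kilobase lay between 0.231 and 0.346 in all 18 libraries, and the ranges of the no-tumor and isotype groups overlapped.

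Ncoa4, the ferritin receptor of the lysosomal route, stood at 76.9, 70.9 and 85.2 CPM in Tim-4high cells without and 90.4, 90.1 and 85.4 CPM with a tumor. The highest no-tumor library lay just under the lowest isotype one. The rise was 1.14-fold (log2 0.19 ± 0.07, adjusted p = 0.0383). It was not called in 6 of 15 alternative analyses, with adjusted p up to 0.165, and without both no-tumor libraries 1 it was 0.18 (adjusted p = 0.093). In Tim-4low cells the difference was 0.13 ± 0.07 on the log2 scale (adjusted p = 0.149), and the test of the difference between the populations gave -0.06 (adjusted p = 0.837).

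Tfrc (ENSMUSG00000022797, chromosome 16, 32608920 to 32632794), the receptor for transferrin-bound iron, was the member that fell. In Tim-4low cells it was at 21.2, 32.8 and 36.4 CPM without and 9.36, 8.54 and 9.43 CPM with a tumor. In Tim-4high cells the no-tumor libraries were spread from 11.7 through 24.4 to 40.8 CPM, and the isotype libraries were at 8.71, 9.57 and 10.2 CPM. Thus no-tumor Tim-4high library 1, the one with 493 CPM of B cell markers, was close to the isotype libraries, and libraries 2 and 3 were well above them. Tfrc fell by 1.73 ± 0.31 on the log2 scale in Tim-4low (3.31-fold lower, adjusted p = 0.000276) and by 1.43 ± 0.31 in Tim-4high cells (2.70-fold lower, adjusted p = 0.00119). Without both no-tumor libraries 1 the falls were by 1.93 and 1.78. Without no-tumor Tim-4high library 3, the highest of its group, the Tim-4high fall was by 0.92 (adjusted p = 0.00802). The form Tfrc-204, annotated as a retained intron, held 14.9% to 26.2% of Tfrc transcript counts in no-tumor Tim-4low libraries and 2.08% to 7.20% in isotype Tim-4low ones. In Tim-4high cells its ranges overlapped, at 4.1% to 21.7% without a tumor and 0.33% to 5.93% with isotype. Hence part of the Tfrc count comes from a form with no annotated coding region.

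**Figure D2:**
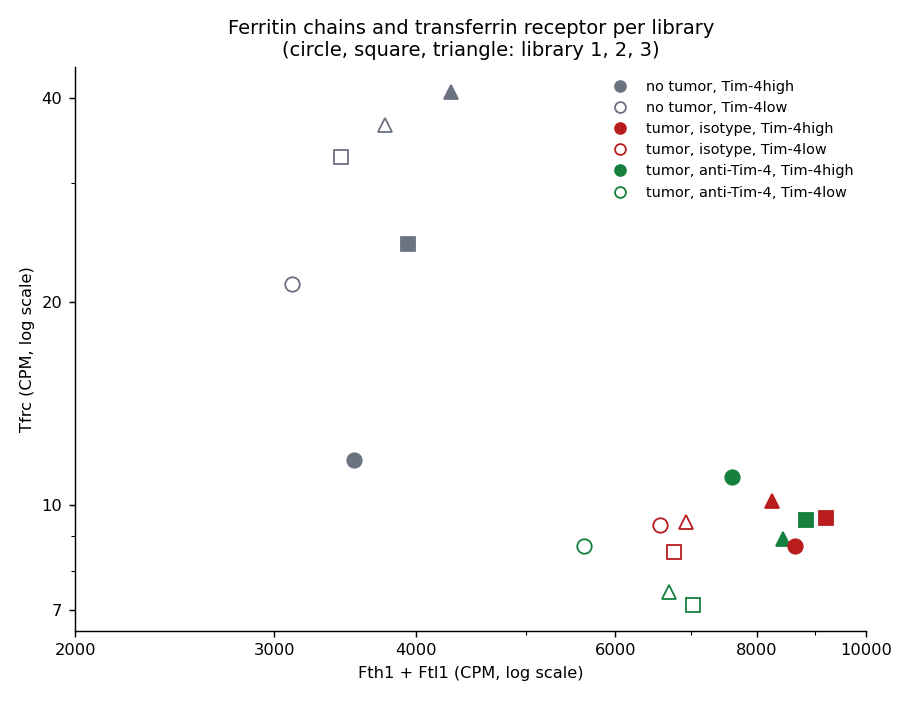
Sum of Fth1 and Ftl1 against Tfrc, both in CPM on log axes, in each of 18 libraries, with filled points for Tim-4high and open points for Tim-4low cells. The 6 libraries without a tumor lie at 3110 to 4300 CPM of ferritin, and the 12 tumor libraries at 5625 to 9211 CPM, where Tfrc is at 7.12 to 11 CPM.

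Slc11a2, the endosomal iron transporter, lay between 12.6 and 18.5 CPM in all 18 libraries. Its tumor difference was -0.11 ± 0.14 on the log2 scale in Tim-4high (95% interval -0.39 to 0.18, adjusted p = 0.531) and 0.12 ± 0.13 in Tim-4low cells (-0.16 to 0.41, adjusted p = 0.472). The form with the hairpin shown above, Slc11a2-205, held 13.6% to 28.6% of its transcript counts, and Slc11a2-201, without it, 69.2% to 84.0%. In Tim-4high cells the hairpin form was at 13.6% to 17% with isotype and 15.8% to 28.6% without a tumor, and the ranges overlapped. In Tim-4low cells it was at 14.9% to 19% with isotype and 22.1% to 25% without a tumor, with no overlap. Shares between overlapping forms are estimates and were not tested.

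Slc11a1 (ENSMUSG00000026177, chromosome 1, 74375195 to 74386062), the phagosomal metal transporter known for resistance to intracellular bacteria, changed in Tim-4low cells. There it was at 296, 360 and 335 CPM without and 480, 495 and 432 CPM with a tumor, with no overlap. It rose 1.42-fold (log2 0.50 ± 0.14, adjusted p = 0.00598). In Tim-4high cells it was at 338, 462 and 471 CPM without and 366, 378 and 362 CPM with a tumor, and the groups overlapped (log2 -0.20 ± 0.14, adjusted p = 0.229). Without no-tumor Tim-4high library 1, the low one of its group, that difference was -0.35 (adjusted p = 0.0352). Slc11a1-208, a form with a retained intron, held 16.2% to 21.3% of Slc11a1 transcript counts without a tumor and 10.8% to 14.8% with isotype.

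Slc40a1 (ENSMUSG00000025993, chromosome 1, 45908068 to 45926523), the iron exporter, was near the limit of detection. It had 2, 1 and 5 counts in Tim-4high and 13, 4 and 7 in Tim-4low libraries without a tumor. With isotype it had 48, 50 and 111 counts in Tim-4high and 20, 44 and 138 in Tim-4low libraries, or 0.634 to 4.41 CPM. The isotype libraries 3, which carried the T and NK cell and neutrophil markers, were the highest of each group. Slc40a1 rose in Tim-4high (log2 4.64 ± 0.80, adjusted p = 0.000177) and in Tim-4low cells (log2 3.07 ± 0.68, adjusted p = 0.00163), from counts so low that the size of the fold is uncertain. Without both isotype libraries 3 the rises were 4.11 (adjusted p = 0.00011) and 1.98 (adjusted p = 0.00849). Slc40a1 could be tested because its tumor groups were high, so a difference was built into its passing the filter.

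Ireb2, the iron regulatory protein, was the steadiest member, between 60.5 and 70.6 CPM in the 18 libraries. Its tumor differences were 0.03 ± 0.06 (95% interval -0.10 to 0.16) in Tim-4high and 0.01 ± 0.06 (-0.12 to 0.14) in Tim-4low cells on the log2 scale. Counts of RNA say nothing of the IRP2 protein, which is known to be degraded when iron is plentiful.

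Blvrb (ENSMUSG00000040466, chromosome 7, 27447978 to 27466144) changed in one population. In Tim-4low cells it was at 70.2, 74.4 and 63.4 CPM without and 117, 118 and 111 CPM with a tumor. In Tim-4high cells it was at 98.3, 114 and 109 CPM without and 108, 111 and 108 CPM with a tumor. The no-tumor Tim-4low libraries were thus the low ones, and the other groups lay together. Blvrb rose 1.66-fold in Tim-4low cells (log2 0.73 ± 0.08, adjusted p = 1.75e-06), against 0.03 ± 0.07 in Tim-4high cells (adjusted p = 0.788). The difference between the populations in their response to the tumor was 0.71 ± 0.11 on the log2 scale (adjusted p = 0.00179). Blvrb was the one member of 9 whose tumor response differed by this test, where 3.53% of all genes passed it.

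Markers of other cells moved with the tumor as well, some up and some down. Of 12 red cell markers 6 were in the table, mainly globin genes, and they summed to 1.08 to 6.42 CPM without a tumor, 13.3 to 87.7 CPM with isotype and 8.44 to 19.3 CPM with anti-Tim-4. Ermap was at 0 in the 3 no-tumor Tim-4low libraries. The 8 fibroblast and mesothelium markers summed to 0.248 to 0.845 CPM without a tumor and 9.17 to 74.3 CPM with isotype. The 6 carcinoma markers found summed to 0.491 to 7.71 CPM without a tumor and 7.67 to 24.8 CPM with isotype. B cell markers summed to 131 to 1670 CPM without a tumor and 7.83 to 80.9 CPM with isotype. Dendritic cell markers in Tim-4low cells summed to 77.7 to 160 CPM without a tumor and 12.9 to 50.4 CPM with isotype, and in Tim-4high cells the ranges overlapped. Monocyte markers were lower with isotype in each population. In Tim-4high cells they summed to 44200 to 60100 CPM without a tumor and 35800 to 36500 CPM with isotype. In Tim-4low cells they summed to 27400 to 33000 and 22500 to 26900 CPM. Sums of this size, near or above those of macrophage markers, cannot be read as monocytes alone. Neutrophil markers in Tim-4high cells summed to 215 to 264 CPM without a tumor and 109, 95.7 and 367 CPM with isotype. Library 3 alone made these overlap. In Tim-4low cells the neutrophil ranges overlapped. Macrophage markers summed to 26200 to 44900 CPM without a tumor and 17100 to 22500 CPM with isotype. Their part in the changes of the iron genes was not tested.

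**Figure D3:**
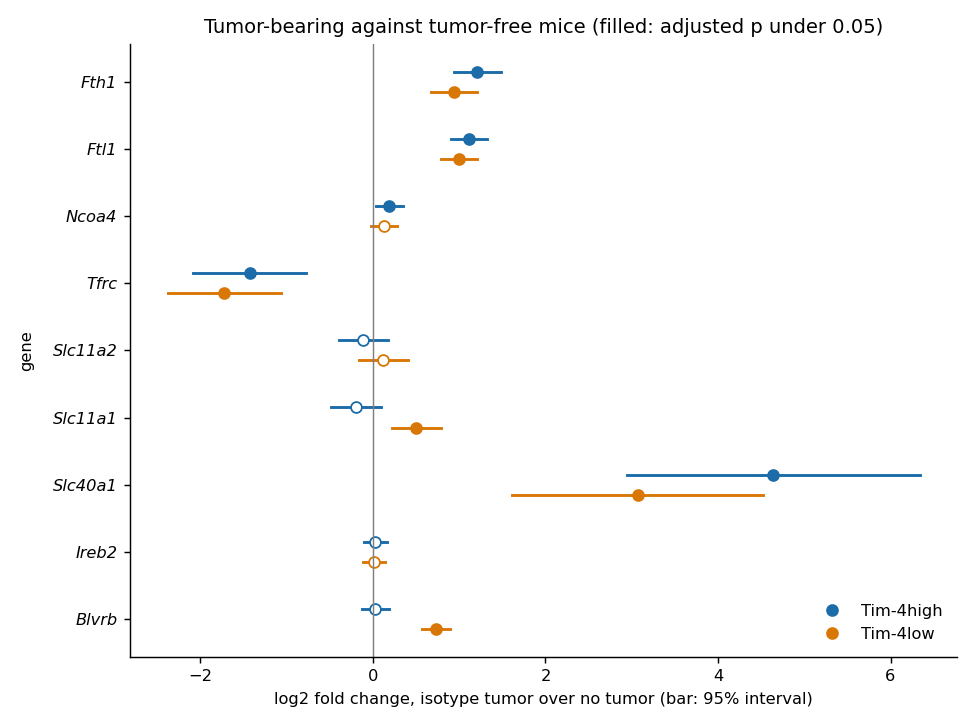
Log2 fold change of isotype tumor over no tumor for each of the 9 genes in Tim-4high (blue) and Tim-4low (orange) cells, with the 95% interval. Filled points passed an adjusted p of 0.05. Slc11a1 and Blvrb are filled in Tim-4low cells alone, and the interval of Slc40a1 is the widest.

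The second comparison was of Tim-4low with Tim-4high cells in each condition. Light chain ferritin was lower in Tim-4low cells without a tumor and with isotype, and Blvrb was lower without a tumor. Without a tumor 0 of the 9 genes were higher and 2 lower in Tim-4low cells, where 12.8% of all genes were higher and 11.8% lower (24.6% called). With isotype 0 were higher and 2 lower, where 11.3% were higher and 12.9% lower (24.1% called). With anti-Tim-4 edgeR called 0 of the 9, where 1.39% of all genes were called. DESeq2 called 1 member, where it called 529 genes in all. At an unadjusted p under 0.05 there were 4 members, all lower in Tim-4low cells. The share of all genes under that unadjusted p is not given here or below, so such counts have no background beside them. Of the members not called higher, 0 without a tumor and 1 with isotype had an unadjusted p under 0.05. DESeq2 called 0 and 1 higher, where it called 2262 and 2066 of the 16609 genes higher. By the edgeR calls, the members' shares were near or under the background in each condition. Without a tumor 17.7% of all genes were higher and 17.2% lower in Tim-4low cells with no overlap of libraries. With isotype the shares were 21.3% and 22%.

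Ftl1 without a tumor was lower in Tim-4low cells in every library, but the call was marginal (log2 -0.28 ± 0.10, adjusted p = 0.0453) and it was lost in 9 of 14 alternatives, with adjusted p up to 0.187, among them the fit without both no-tumor libraries 1 (-0.29, adjusted p = 0.105). With isotype Ftl1 was 1.31-fold lower in Tim-4low cells (log2 -0.39 ± 0.10, adjusted p = 0.00906), and each Tim-4low library lay below each Tim-4high one. With anti-Tim-4 its values were 4180, 4783 and 4452 CPM in Tim-4high and 3313, 4221 and 3664 CPM in Tim-4low cells, and the groups overlapped (-0.26 ± 0.10, adjusted p = 0.246).

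Fth1 did not differ beyond its error without a tumor (-0.06 ± 0.13, 95% interval -0.33 to 0.21). With isotype it was -0.33 ± 0.13 (adjusted p = 0.0704) and with anti-Tim-4 -0.49 ± 0.13 (adjusted p = 0.074), from 3420, 4060 and 3991 CPM in Tim-4high and 2312, 2806 and 3028 CPM in Tim-4low cells. Libraries of the same number deviated together within a condition, and with a block on that number both differences passed: -0.33 (adjusted p = 0.00205) with isotype and -0.50 (adjusted p = 0.00148) with anti-Tim-4. Without a block, DESeq2 also called both (adjusted p = 0.0431 and 0.0106), as did the fit of the compared groups alone with isotype (adjusted p = 0.0146). They stayed uncalled in 11 of 14 alternatives with isotype and 11 of 13 with anti-Tim-4, with adjusted p up to 0.222 and 0.32. Under the block Ftl1 passed with anti-Tim-4 also (-0.27, adjusted p = 0.0347).

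The population difference of Slc11a1 had opposite signs without a tumor and with isotype. Between libraries of the same number, Tim-4low minus Tim-4high was -41.2, -102 and -136 CPM without a tumor and 113, 117 and 70.2 CPM with isotype. Under anti-Tim-4 it lay on both sides of 0, at -27.3, -8.95 and 45.8 CPM. In the edgeR fit of all groups without a block neither difference passed (-0.36 ± 0.14, adjusted p = 0.0671, without a tumor, and 0.35 ± 0.14, adjusted p = 0.0753, with isotype). With the block both did, at -0.35 (adjusted p = 0.00245) and 0.35 (adjusted p = 0.00259). DESeq2 without a block called both as well (adjusted p = 0.0471 and 0.0492), the isotype difference passed with the compared groups alone (adjusted p = 0.00618), and the no-tumor difference passed without both no-tumor libraries 1 (-0.42, adjusted p = 0.038) and without no-tumor Tim-4high library 1 (-0.51, adjusted p = 0.0105). The differences stayed uncalled in 10 of 14 alternatives without a tumor and 11 of 14 with isotype, with adjusted p up to 0.225 and 0.21. The difference between these 2 conditions was 0.70 ± 0.19 without the block (adjusted p = 0.0557) and 0.69 ± 0.10 with it (adjusted p = 0.00124). It also passed without a block with DESeq2 (0.71, adjusted p = 0.0105), without both no-tumor libraries 1 (0.77, adjusted p = 0.0186) and without no-tumor Tim-4high library 1 (0.85, adjusted p = 0.0104). In the other 17 of 21 alternatives it did not pass, with adjusted p up to 0.141. Among these was the fit without both isotype libraries 3 (0.75, adjusted p = 0.128).

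Blvrb was 1.54-fold lower in Tim-4low cells without a tumor (log2 -0.63 ± 0.08, adjusted p = 2.67e-05). With isotype the difference was 0.08 ± 0.07 (adjusted p = 0.494). Ncoa4 was 1.17-fold lower in Tim-4low cells with isotype, at 77.0, 75.9 and 74.9 against 90.4, 90.1 and 85.4 CPM (log2 -0.22 ± 0.07, adjusted p = 0.0352), and the call was lost in 7 of 14 alternatives, among them the fit without both isotype libraries 3 (-0.25, adjusted p = 0.0873). The share of Ncoa4-202 among Ncoa4 transcripts was 14.6% to 22.7% in Tim-4low and 25.8% to 30.0% in Tim-4high isotype libraries. Tfrc, Slc40a1, Slc11a2 and Ireb2 were not called between the populations in any condition.

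**Figure D4:**
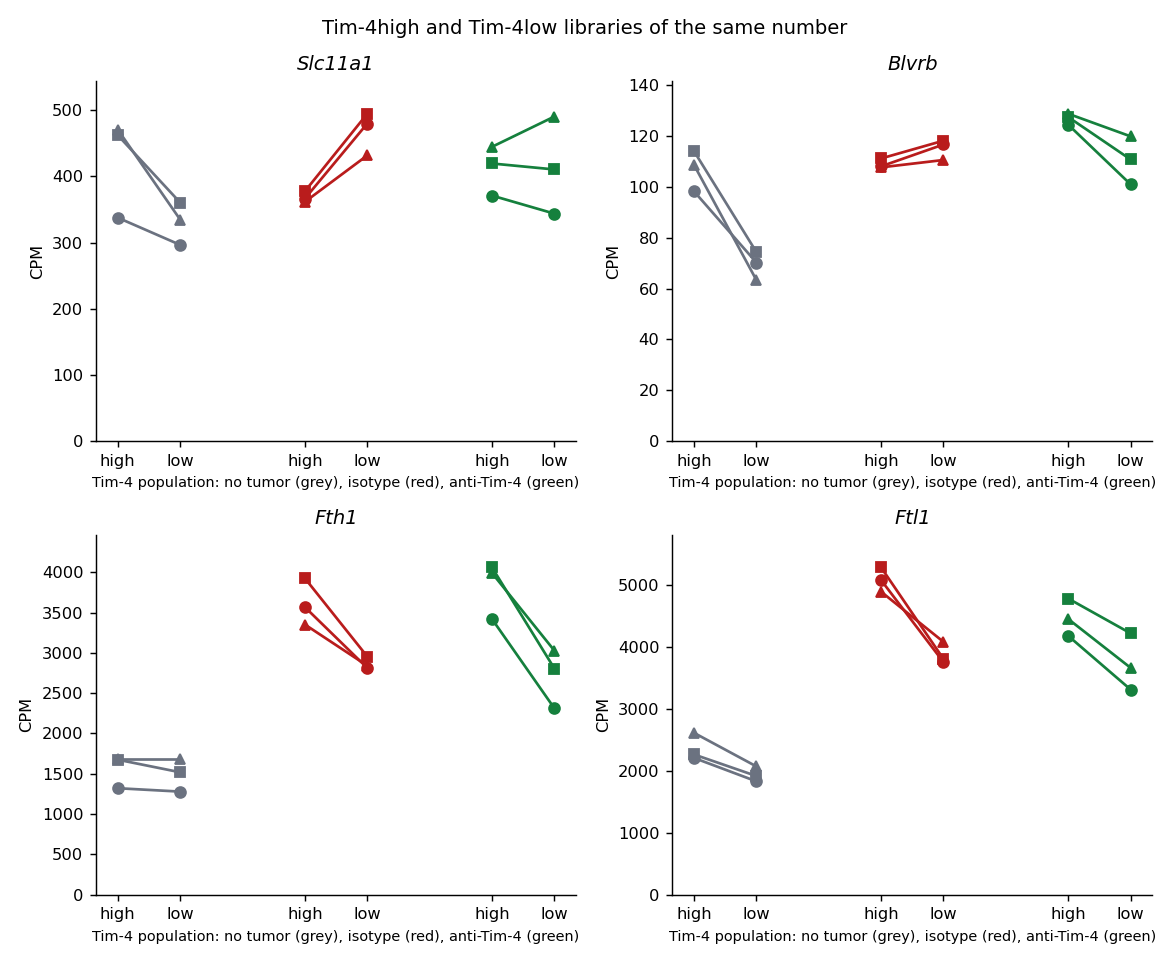
CPM of Slc11a1, Blvrb, Fth1 and Ftl1 in the Tim-4high and Tim-4low libraries of the same number, joined by lines, without a tumor (grey), with isotype (red) and with anti-Tim-4 (green). All 3 Slc11a1 lines go down without a tumor and up with isotype, and all 3 Ftl1 lines go down in each condition.

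The third comparison asked what the antibody against Tim-4 did in tumor-bearing mice. With edgeR 0 of the 9 were called in Tim-4high cells, where 7.97% of all genes were, and 0 in Tim-4low cells, where 0.325% were. At an unadjusted p under 0.05 there were 1 and 0. DESeq2 called 0 members in both, where it called 2128 and 295 genes in all. Blvrb in Tim-4high cells came closest, at 124 to 129 CPM with anti-Tim-4 against 108 to 111 CPM with isotype, and the groups did not overlap (log2 0.22 ± 0.07, 95% interval 0.06 to 0.38, adjusted p = 0.0797). Of all genes tested, 19.9% were higher without overlap in this comparison. Fitted on its 6 libraries alone, Blvrb passed (adjusted p = 0.0212). The authors' deposited table for this comparison, made with DESeq2, gives Blvrb a fold of 1.164 at an FDR of 0.0048 and Ftl1 a fold of -1.138 at an FDR of 0.0425.

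For Fth1 the antibody difference was 0.08 ± 0.13 (95% interval -0.19 to 0.35) in Tim-4high and -0.08 in Tim-4low cells on the log2 scale. For Tfrc it was 0.05 ± 0.31 (-0.61 to 0.71) and -0.23. Tfrc had 212 to 295 counts a library in the Tim-4low tumor groups. Its wide interval rests on a spread estimated over all 6 groups, and its no-tumor Tim-4high libraries ranged from 11.7 to 40.8 CPM. Slc40a1 had 30, 49 and 25 counts in Tim-4high and 26, 37 and 27 in Tim-4low anti-Tim-4 libraries, lower than in isotype libraries by log2 -1.0 ± 0.59 and -1.19, and neither passed (adjusted p = 0.299 and 0.431). Without both isotype libraries 3 these differences were -0.47 and -0.10 (adjusted p = 0.625 and 0.967). The anti-Tim-4 groups share the isotype libraries with the tumor comparison.

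The test of whether the response to the antibody differed between the populations passed for 0 members in the edgeR fit without the block, where 2.93% of all genes passed. Of the 9, 1 had an unadjusted p under 0.05, and DESeq2 called 0. With the block the Slc11a1 difference was -0.34 (adjusted p = 0.0359), from a Tim-4low over Tim-4high value of 0.35 with isotype and of 0.01 with anti-Tim-4.

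The wider iron pathway was read from 7 lists of 77 further genes, of which 64 were tested. In Tim-4high cells 27 of the 64 rose with the tumor and 8 fell. In Tim-4low cells 26 rose and 7 fell. These counts stand beside the 27.3% and 25.2% of all genes that rose, and each list's share was not tested. The genes that rose include Steap4 and Hephl1 in both populations and Alas2 in Tim-4low cells. These passed the filter through their tumor groups, so their rises were built in.

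Among sensors and regulators, Fbxl5, the iron-sensing subunit of the ligase that degrades IRP2, was at 97.1 ± 16.6 CPM in Tim-4high and 107 ± 9.99 CPM in Tim-4low cells without a tumor (SD, n = 3). It was at 252 ± 24.3 and 374 ± 23.0 CPM with isotype, a rise of 1.38 ± 0.12 and 1.80 ± 0.12 on the log2 scale (adjusted p = 3.65e-07 and 3.3e-08). Thus the gene for the IRP2-degrading subunit changed while Ireb2 itself stayed within its error. Hif1a, a transcription factor of low oxygen, rose by 1.44 in both populations. Bmp6, a ligand that induces hepcidin in the liver, went from 3.53 ± 0.527 to 68.7 ± 11.8 CPM in Tim-4high and from 0.616 ± 0.351 to 12.2 ± 9.01 CPM in Tim-4low cells. Hfe, an iron sensor that binds the transferrin receptor, rose in Tim-4high cells (log2 0.89 ± 0.11, adjusted p = 1.32e-05) and stood at 0.23 ± 0.11 in Tim-4low cells (adjusted p = 0.0993).

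Among genes of uptake, 4 of 6 tested rose in Tim-4high and 3 of 6 in Tim-4low cells, and 0 fell, beside 27.3% and 25.2% of all genes that rose and 24.1% and 24.6% that fell. Slc39a14 (ZIP14), a carrier of iron not bound to transferrin, rose by 1.08 ± 0.22 and 1.45 ± 0.22 on the log2 scale (adjusted p = 0.000761 and 5.8e-05). Steap4, a metal reductase, was at 0.0790 to 0.491 CPM in no-tumor libraries and at 2.57 to 17.9 CPM in isotype libraries. Its highest values were in the isotype libraries 3, at 17.9 and 16.8 CPM, and its log2 rise was 4.80 and 5.28 with them and 3.55 and 4.08 without them. At 2 to 13 counts without a tumor, Steap4 was testable through its tumor groups, so its difference was built into passing the filter. The counts of uptake genes that rose include it. Among genes of export, Hephl1, a ferroxidase relative, had 0 counts in all 3 no-tumor Tim-4high libraries and 24, 49 and 30 in the isotype ones. Cp, the ferroxidase ceruloplasmin, was not called with the tumor but was lower in Tim-4low cells without a tumor (log2 -1.74 ± 0.33, adjusted p = 0.00108) and with isotype (-1.79 ± 0.33, adjusted p = 0.0012). Hamp, which encodes hepcidin, was at most 0.576 CPM in any library.

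Among genes of heme handling, Hmox1, which releases iron from heme, rose by 1.96 ± 0.27 in Tim-4high (161 ± 48.1 to 630 ± 186 CPM, adjusted p = 2.71e-05) and by 1.5 ± 0.27 in Tim-4low cells (225 ± 59.0 to 636 ± 89.3 CPM, adjusted p = 0.000295). Cd163, the hemoglobin scavenger receptor, fell by 3.48 ± 0.57 in Tim-4low cells, from 233 ± 112 to 21.0 ± 3.55 CPM (adjusted p = 0.000129). In Tim-4high cells it was at 217 ± 140 without and 125 ± 87.7 CPM with a tumor (adjusted p = 0.214). The test of the difference between these responses gave -2.68 ± 0.74 and did not pass (adjusted p = 0.0612). With anti-Tim-4, Cd163 was the 1 iron gene of the 64 called between the populations, lower in Tim-4low cells by log2 -3.51 ± 0.57 (adjusted p = 0.0103), where 0.849% of all genes were lower. The call was lost in 2 of 13 alternatives, without anti-Tim-4 library 2 of either population (adjusted p up to 0.0552). Flvcr1, a heme exporter, was 2.54-fold higher in Tim-4low cells without a tumor and 2.17-fold higher with isotype.

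Among genes of heme synthesis and mitochondrial iron, Alas1, the first enzyme of heme synthesis outside red cells, fell by 0.57 ± 0.09 and 0.52 ± 0.09 on the log2 scale in Tim-4high and Tim-4low cells. Alas2, the red cell enzyme, had 1, 2 and 2 counts in Tim-4low libraries without a tumor and 29, 9 and 12 with isotype. In those isotype libraries the red cell markers, of which Alas2 is one, summed to 22 to 87.7 CPM. It passed the filter through its tumor groups, so no test is given. Of 21 genes of mitochondrial iron and iron-sulfur assembly, 9 rose and 2 fell in Tim-4high and 10 rose and 1 fell in Tim-4low cells, beside 27.3% and 25.2% of all genes that rose and 24.1% and 24.6% that fell. Slc25a28 (mitoferrin-2), a mitochondrial iron importer, fell in Tim-4high cells by 0.79 ± 0.10 and was 0.22 ± 0.10 in Tim-4low cells, and its tumor response differed between the populations (1.01 ± 0.14, adjusted p = 0.00159). Hfe, Bach1 and Abcb8 differed by the same test at adjusted p = 0.0355, 0.0432 and 0.0463, and they lost the call in 12, 13 and 15 of 21 alternatives, each also without both isotype libraries 3.

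**Figure D5:**
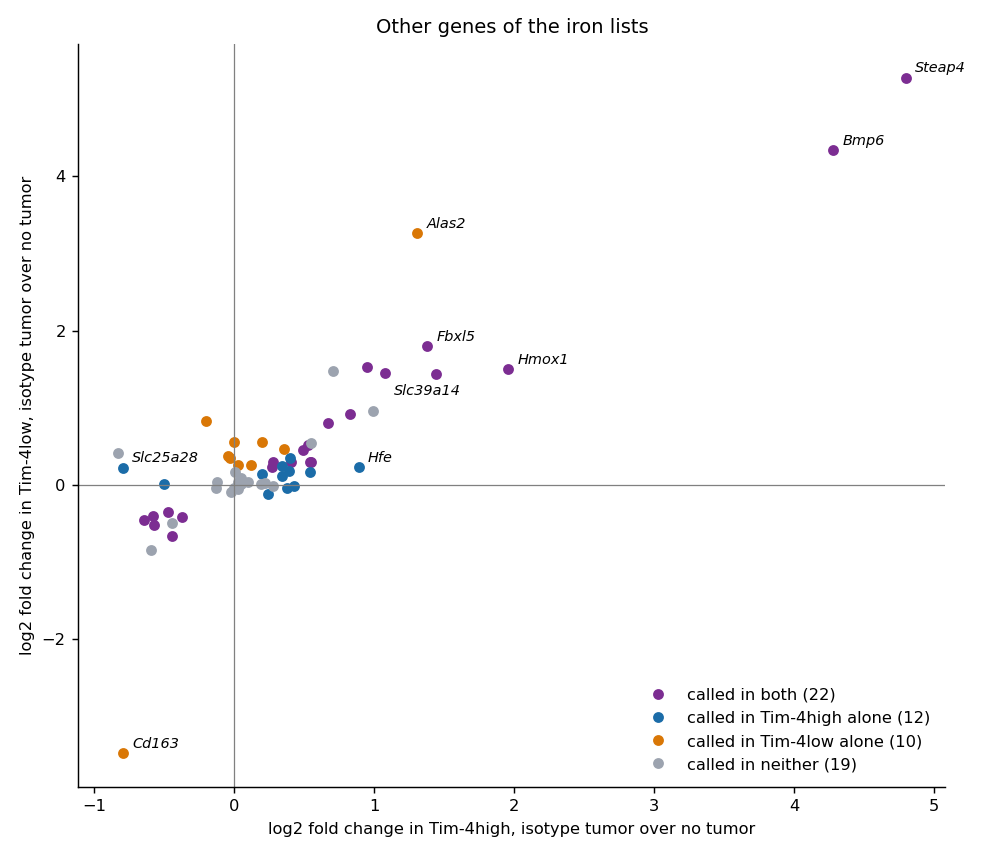
Log2 fold change of isotype tumor over no tumor in Tim-4high (x) and Tim-4low (y) cells for 63 of the 64 other iron genes tested, with Hephl1 left out because it had 0 counts in a group. Of these, 22 were called in both populations, 12 in Tim-4high alone and 10 in Tim-4low alone. Steap4 and Alas2 passed the filter through their tumor groups.

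With the antibody, 4 of the 64 genes rose in Tim-4high cells, Aco1, Hif1a, Nfe2l2 and Flvcr1, by 0.33 to 0.58 on the log2 scale. This count is near the background, since 4.3% of all genes rose in that comparison. Each lost its call in 4 to 7 of 14 alternatives, also without both isotype libraries 3. In Tim-4low cells Slc25a28 fell by 0.65 ± 0.10 (adjusted p = 0.029), where 0.102% of all genes fell. The call was lost in 6 of 14 alternatives, also without both isotype libraries 3.

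The genes whose log2 CPM followed each member most closely over the 18 libraries were Adam9, Gla and Atp6ap1 for Fth1 (Pearson r of 0.977, 0.975 and 0.973). For Ftl1 they were its copy Ftl1-ps1 (0.997), Ctsl (0.984) and Atp6ap1 (0.980), so both chains share 1 of their closest genes. Adam9 is a membrane protease, Gla and Ctsl are lysosomal enzymes and Atp6ap1 is an accessory subunit of the proton pump that acidifies lysosomes. For Tfrc they were Nr1d2 (0.946), Tef (0.937) and Rpl10a (0.932), of which Nr1d2 and Tef are transcription factors of the circadian clock. For Blvrb they were Snx24 (0.964), Rgmb (0.962) and Dmxl2 (0.954), and for Slc40a1 Btf3 (0.942). The closest gene was weaker for Slc11a1 (Card19, 0.849), Slc11a2 (Mapkapk2, 0.877), Ncoa4 (Wdr7, 0.922) and Ireb2 (Mon2, 0.902). The 18 libraries fall into 6 groups, so these values mostly describe shared differences between groups, and they carry no test.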

How the data were processed

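Estimated counts per gene and per transcript were deposited by the authors without normalization, and mm10, STAR and DESeq2 are named, without versions, in the submitters' processing notes. Quantifier, strand setting and annotation release: not given in the sources used here. The authors' deposited tables give signed linear folds, as a score, with p-values and FDR values for 2 comparisons. Estimated counts were rounded. The filterByExpr function kept 16609 of 23511 genes, and edgeR 4.0.16 (R 4.3.3) fitted all 18 libraries with 6 group means and TMM factors. The quasi-likelihood test had 12 residual degrees of freedom. Alternatives were RLE factors, no filter, robust estimation, DESeq2 1.42.0, a fit of only the compared groups, library number as a block, and omission of each library. Summing Ftl1 with its copies, and leaving out both isotype libraries 3 or both no-tumor libraries 1, were added after seeing the data. Within a condition, deviations of same-numbered Tim-4high and Tim-4low libraries (9 pairs) had correlations of 0.27 to 0.839, and those of other numbers at -0.749 to 0.18. The numbers thus pair libraries within a condition, as a reading of the data, while across conditions the same number gave -0.737 to 0.391. Replicates differed beyond counting noise. The members and gene lists were chosen with earlier results of these data known. All 9 members are named, and of each list up to 3 other genes with the smallest p among those called in a comparison, and the 3 genes most like each member. On simulated data edgeR recovered 70.3% and 68.2% of genes changed 2-fold for the tumor comparison in Tim-4high and Tim-4low cells, run on 16246 and 16218 genes, and 43.8% for the antibody interaction, run on 16243 genes.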

Additional observations from a re-analysis of the deposited data

Results flagged for a closer look

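Slc11a1 differed between conditions in its population difference. The interaction of tumor and population was 0.69 on the log2 scale in the fit with a block on library number (adjusted p = 0.00124, edgeR), and in 3 of 3 pairs of the same number Tim-4low was lower without a tumor and higher with isotype. Without the block it was 0.70 and did not pass (adjusted p = 0.0557), but it passed without a block with DESeq2 (0.71, adjusted p = 0.0105), without both no-tumor libraries 1 (0.77, adjusted p = 0.0186) and without no-tumor Tim-4high library 1 (0.85, adjusted p = 0.0104). In the other 17 of 21 alternatives it did not pass, with adjusted p up to 0.141. The interaction of antibody and population was -0.34 for Slc11a1 with the block (adjusted p = 0.0359) and did not pass without it (adjusted p = 0.363).

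Blvrb differed between populations in its tumor response by 0.71 on the log2 scale (adjusted p = 0.00179), with 3 of 3 pairs lower in Tim-4low cells without a tumor and 3 of 3 higher with isotype. The isotype difference itself was small, at 0.08 on the log2 scale. It did not pass (adjusted p = 0.494, edgeR), and the isotype groups overlapped. For the antibody, Tim-4low minus Tim-4high was above 0 in the 3 isotype pairs (8.58, 7.07 and 2.89 CPM) and below 0 in the 3 anti-Tim-4 pairs (-23.5, -16.6 and -8.89 CPM). That interaction was -0.28 with the block and did not pass (adjusted p = 0.0525 with and 0.153 without the block).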

How the results depend on the processing

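Of 81 member results, 16 were called. In 13 of these the direction and the call were kept in every alternative run, and in none did the direction turn. The 3 others were Ftl1 between populations without a tumor, Ncoa4 between populations with isotype and Ncoa4 with the tumor in Tim-4high cells. Among the 13 are the tumor rises of Slc40a1 in both populations, which were built into its passing the filter. Over 1259 alternative values 1172 stayed on the same side, 22 lost a call, 22 gained one and 43 turned direction without being called in either analysis. The cause of these moves was not tested, except that leaving out a library or fitting the compared groups alone uses fewer samples. RLE factors moved no median over all genes by more than 0.02 on the log2 scale. The block on library number pairs populations within a condition in the population and interaction tests. In the tumor and antibody comparisons it gave each number an effect shared by all conditions, though across conditions the same number gave correlations of -0.737 to 0.391. The block changed no other call of a member than those given in the results.

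Members called numbered 2 without a tumor between populations, and 1 with no filter, with the compared groups alone and with Ftl1 summed with its copies, and 1 to 3 when 1 library was left out. With isotype they numbered 2, and 4 with DESeq2, the compared groups alone and the replicate block, 1 with no filter and with both isotype libraries 3 left out, and 1 to 2 when 1 library was left out. With anti-Tim-4 they numbered 0, and 1 with DESeq2 and 2 with the block. For the antibody in Tim-4high cells they numbered 0, and 1 with the compared groups alone. For the tumor interaction they numbered 1, and 2 with DESeq2, the block, without both no-tumor libraries 1 and without no-tumor Tim-4high library 1, with 1 to 2 when 1 library was left out. For the antibody interaction they numbered 0, and 1 with the block.

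Genes called in all moved too. Between populations they numbered 4086 without a tumor and 2472 with the compared groups alone (2796 to 3888 when 1 library was left out), 4011 with isotype (2625 to 3485, fewest without isotype Tim-4low library 2), and 231 with anti-Tim-4, against 529 with DESeq2, 445 with the compared groups alone, 1182 with the block and 25 to 139 when 1 library was left out. For the antibody in Tim-4high cells they numbered 1324, against 2128 with DESeq2, 2990 with the compared groups alone, 210 with both isotype libraries 3 left out and 10 to 1160 when 1 library was left out, fewest without isotype library 1. In Tim-4low cells they numbered 54, against 34 with no filter, 295 with DESeq2, 3 with the compared groups alone, 5 with both isotype libraries 3 left out and 2 to 40 when 1 was left out. For the tumor interaction they numbered 587, against 1040 with DESeq2, 1858 with the block, 264 with both isotype libraries 3 and 911 with both no-tumor libraries 1 left out, and 321 to 889 when 1 was left out. For the antibody interaction they numbered 487, against 1297 with DESeq2, 976 with the compared groups alone, 2609 with the block, 9 with both isotype libraries 3 left out and 1 to 1418 when 1 was left out, most without anti-Tim-4 Tim-4low library 3. The block and the pairing it rests on thus moved counts over all genes by more than 1.5 times in these interactions and with anti-Tim-4.

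Directions that turned were those of differences not called. When 1 library was left out, log2 differences between populations ranged from -0.18 to 0.03 for Fth1, -0.12 to 0.74 for Tfrc and -0.21 to 0.06 for Slc11a2 without a tumor, from -1.38 to 0.23 for Slc40a1 with isotype, and from -0.12 to 0.13 for Slc11a1 and -0.15 to 0.01 for Slc11a2 with anti-Tim-4. Antibody differences ranged from -0.04 to 0.12 for Tfrc and -0.02 to 0.08 for Ncoa4 in Tim-4high cells, and in Tim-4low cells from -0.16 to 0.02 for Fth1, -0.15 to 0.02 for Ftl1, -0.11 to 0.00 for Blvrb and -0.04 to 0.04 for Ireb2, which was also 0.01 with no filter and 0.00 with DESeq2 and the compared groups alone. Tumor differences ranged from -0.02 to 0.08 for Ireb2 and -0.04 to 0.08 for Blvrb in Tim-4high and from -0.02 to 0.05 for Ireb2 in Tim-4low cells, and without both no-tumor libraries 1 they were -0.03 for Blvrb in Tim-4high and -0.02 for Ireb2 in Tim-4low cells. The tumor interaction ranged from -0.80 to 0.06 for Tfrc, -0.13 to 0.00 for Ncoa4 and -0.07 to 0.02 for Ireb2. The antibody interaction of Slc40a1 ranged from -0.71 to 0.89, and was 0.05 with the block and 0.36 with both isotype libraries 3 left out.

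Depth limits Slc40a1, with 1 to 13 counts in libraries without a tumor. Tfrc is limited by the spread of its no-tumor Tim-4high libraries, from 11.7 to 40.8 CPM. Ftl1 is limited by reads shared with its copy.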
